A study of Homo sapiens with 4 samples.

Results

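The genes described here are 8 genes of MHC class I antigen presentation, out of 57891 annotated genes that were summed from the deposited transcript counts. They are B2M, the light chain of the class I molecule, the heavy chain genes HLA-B, HLA-C and HLA-E, the peptide transporter genes TAP1 and TAP2, the tapasin gene TAPBP and the peptide trimming gene ERAP1. The genes were picked by name after an earlier look at these data, in which B2M stood among the leading decreases at 30 min, so their levels and ratios are a description and were not tested. Each gene's value is the sum of its annotated transcripts, scaled to CPM, the count relative to the library's total.

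The cells were AC16, an established human cell line derived from a fusion of ventricular heart tissue cells and a fibroblast line. Poly(A) RNA was sequenced from 4 groups of 1 library each: untreated cells, called 0 min, and cells given the anthracycline doxorubicin at 10 nM for 10, 30 or 360 min. Treated cells went from serum-containing medium through a rinse into fresh medium without serum, and no label tells if 0 min cells were handled that way, so the effect of doxorubicin, of new medium and of serum removal cannot be told apart. With 1 library per time no difference has a replicate check, all comparisons with 0 min share that library, and a range after a value is a 95% counting interval, which covers counting error alone.

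The 4 libraries held 55156612 to 56875881 deposited counts, taken as 13789153 to 14218970 read pairs. Although the line is labelled as cardiomyocytes, ACTC1 was at 0 and TNNT2, MYH6, MYH7 and ACTN2 stayed below 1 CPM in every library, and 5 of 12 cardiomyocyte markers reached 1 CPM (summed level 88.4 to 190 CPM), among them MYL2 and NPPB. Of 9 fibroblast and matrix markers 5 reached 1 CPM, and DCN and LUM were at 0. Their summed level was 10522 CPM at 0 min, 13776 CPM at 10 min, 8981 CPM at 30 min and 8897 CPM at 360 min. Of 10 immune markers 3 reached 1 CPM, the sum of 31.0 to 60.7 CPM was highest at 10 min and mostly CD68, and CD14 was at 0. Endothelial markers summed to 4.54 to 11.4 CPM, and epithelial markers to 465 to 517 CPM, nearly all KRT8 and KRT18.

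A class I molecule is a heavy chain joined to B2M and to a short peptide, and without B2M the classical heavy chains do not fold stably or reach the cell surface in number. Peptides made by the proteasome are carried into the endoplasmic reticulum by the TAP1 and TAP2 heterodimer, trimmed there by ERAP1 and loaded onto the heavy chain with the help of tapasin, which bridges it to the transporter. T cells read the classical heavy chains HLA-B and HLA-C, while HLA-E presents mainly signal peptides of other class I chains to natural killer cells. Nearly all nucleated cells make these genes at some level, and their promoters are known for shared elements that bind interferon regulatory factors, NF-kB and the RFX, CREB and NF-Y complex with the activator NLRC5.

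Upstream sequence was examined because B2M and the heavy chains are known to share promoter elements. By gene sums, B2M was lowest at 30 min and the heavy chains were highest at 10 min. The contrast is partial: HLA-E was also lowest at 30 min, at 64.1 CPM. With protein-coding transcripts alone, B2M was also highest at 10 min, at 170 CPM. RefSeq windows of 300 bases (250 before to 50 after the start, build GRCh38.p14) matched 7 of the 8 genes by symbol in 9 windows, TAP1 and ERAP1 having more than 1. The part upstream of the outermost annotated start is printed, 5′ to 3′ on the gene's strand, for B2M at chr15:44711267-44711486 on the plus strand and, on the minus strand, for HLA-B at chr6:31357189-31357429, HLA-C at chr6:31272131-31272342 and TAP2 at chr6:32838781-32838989. Capitals mark matches to 4 motifs searched on both strands: GAAA, any 2 bases and GAAA again, an element like that of interferon-stimulated genes, ATTGG, the inverted CCAAT element, TGACG, a site like that of CREB, and GGG, any 2 bases, TT, any 1 base and CC, like that of NF-kB.
B2M: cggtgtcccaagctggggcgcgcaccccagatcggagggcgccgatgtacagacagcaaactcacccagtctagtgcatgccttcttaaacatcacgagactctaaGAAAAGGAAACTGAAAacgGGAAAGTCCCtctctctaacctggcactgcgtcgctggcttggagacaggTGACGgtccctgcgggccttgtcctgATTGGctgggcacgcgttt
HLA-B: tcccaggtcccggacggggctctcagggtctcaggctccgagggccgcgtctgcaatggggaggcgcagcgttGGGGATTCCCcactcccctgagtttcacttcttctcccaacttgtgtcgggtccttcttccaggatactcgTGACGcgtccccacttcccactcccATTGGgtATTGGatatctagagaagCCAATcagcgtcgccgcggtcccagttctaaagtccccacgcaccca
HLA-C: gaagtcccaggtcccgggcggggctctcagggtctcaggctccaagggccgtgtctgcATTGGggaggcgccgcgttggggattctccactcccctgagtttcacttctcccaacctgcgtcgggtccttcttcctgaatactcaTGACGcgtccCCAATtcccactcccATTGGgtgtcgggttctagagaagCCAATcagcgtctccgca
TAP2: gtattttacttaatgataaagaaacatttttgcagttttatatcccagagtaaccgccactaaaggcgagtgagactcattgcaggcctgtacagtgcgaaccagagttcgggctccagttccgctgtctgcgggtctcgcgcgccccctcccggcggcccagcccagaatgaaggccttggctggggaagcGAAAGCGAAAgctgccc
Within the 300-base windows, the interferon-type motif was found in 5 of the 7 genes (B2M, TAP1, TAP2, TAPBP and ERAP1) and in 3.57% of all 35116 promoter windows. The NF-kB-type motif was found in 5 (B2M, HLA-B, TAP1, TAPBP and ERAP1) and in 5.68% of all windows. The inverted CCAAT element was in 5 (B2M, HLA-B, HLA-C, TAP1 and ERAP1) and in 34.6% of all windows, and the CREB-type site in 4 (B2M, HLA-B, HLA-C and TAP2) and in 24.6%. Genes were counted if any of their windows matched, while the share of all windows is per window. TAP1 and ERAP1 had all their matches in 1 window each. In B2M the 2 interferon-type matches overlap each other, and the CREB-type site of TAP2 lies past its printed stretch. The printed HLA-B and HLA-C stretches were 78.8% identical over their alignment, while B2M was 46.8 to 51.4% identical to the other 3 printed here. A match is a run of letters and not a measured binding site. An element that departs from these letters is not counted, so a gene without a match may still hold one.

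B2M was the gene with the widest range among the 8. B2M (ENSG00000166710, chr15:44711487-44718877, plus strand, GRCh38 with GENCODE 29) had 317 CPM at 0 min, 287 CPM at 10 min, 74.4 CPM at 30 min and 263 CPM at 360 min. The 30 min library stood apart, below all the others, which lay between 263 and 317 CPM. At 30 min the level was 4.27-fold (3.99 to 4.57) lower than at 0 min. At 360 min it was 3.54-fold (3.30 to 3.80) higher than at 30 min. That comparison does not use the 0 min library but rests on the 30 min value for which B2M was chosen. The ratio to 0 min was 0.905 (0.867 to 0.945) at 10 min and 0.830 (0.794 to 0.867) at 360 min. In RNA from a whole culture, fewer cells that express a gene and less of its RNA per cell cannot be told apart.

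The size rule used here asks for a change of 2-fold or more whose counting interval leaves out 1, in a gene that reaches 5 CPM in either library compared. At 30 min B2M was the 1 gene of the 8 past it in the downward direction, where 3.25% of 11533 tested genes were, and none of the 8 was past it upward, where 3.55% were. For 360 min over 30 min, B2M was again the 1 gene past it upward, against 3.26% of 11502 genes, and none was lower, against 3.49%. Of 1891 genes with at least 100 CPM at 0 min, B2M had the 10th lowest ratio at 30 min (rank 10), and 44 of these genes were lower and 15 higher by the rule. These counts cannot speak for B2M, which was chosen for this decrease.

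**Figure D1:**
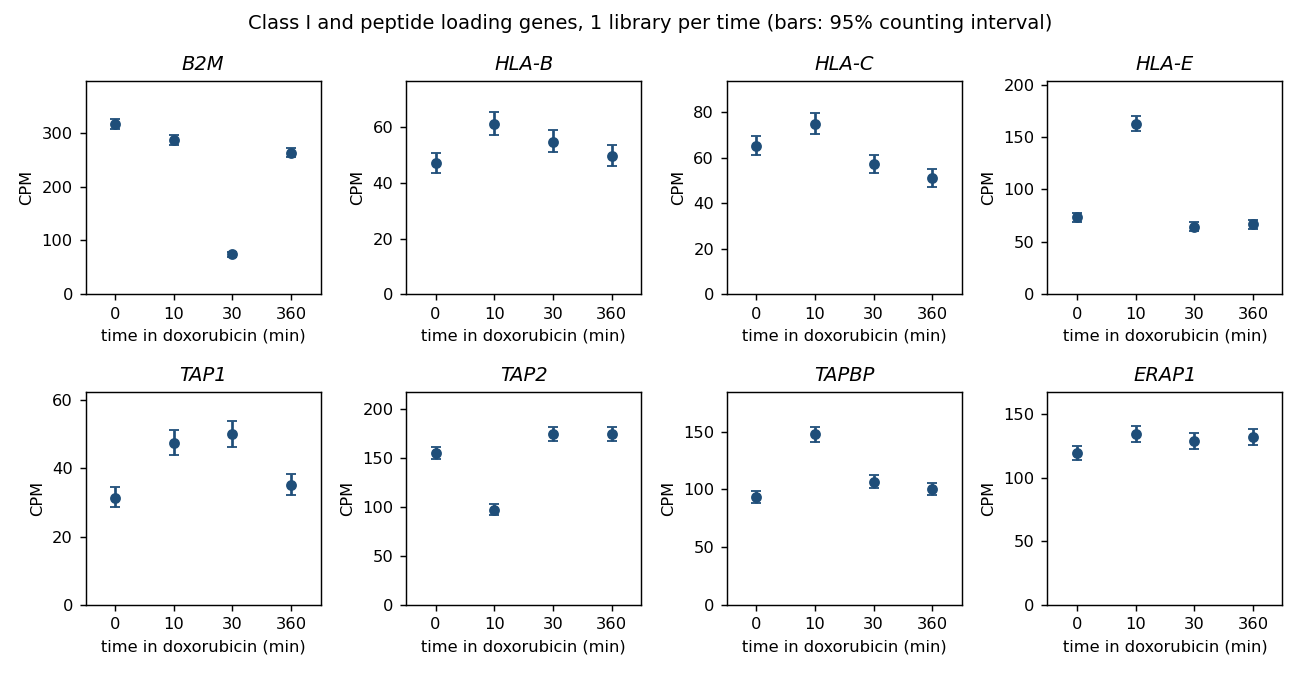
Level of each of the 8 genes in CPM (vertical axes from 0, a scale of its own in each panel) at 0, 10, 30 and 360 min (horizontal axis, evenly spaced), 1 library per time, with the 95% counting interval as bars. B2M lies at 74.4 CPM at 30 min and between 263 and 317 CPM at the other times, HLA-E at 163 CPM at 10 min and between 64.1 and 73.4 CPM at the others, and TAP2 at 97.3 CPM at 10 min.

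Most B2M counts lay on a pair of transcript models, and they did not move alike. B2M-204 (ENST00000558401, 1705 bases, 4 exons) is annotated as protein coding, and B2M-201 (ENST00000349264, 732 bases, 4 exons) as a target of nonsense-mediated decay, the pathway that degrades mRNAs with an early stop. B2M-201 had 9786 counts at 0 min, 5170 at 10 min, 376 at 30 min and 8897 at 360 min. B2M-204 had 6995 counts at 0 min, 9287 at 10 min, 2723 at 30 min and 4807 at 360 min. B2M-201 led the gene at 0 and 360 min, and B2M-204 at 10 and 30 min.

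The share of B2M-201 in the gene sum was 54.2% (52.7 to 55.7) at 0 min, 32.4% (30.9 to 33.8) at 10 min, 9.15% (7.45 to 11.1) at 30 min and 61.2% (59.6 to 62.8) at 360 min. The share of B2M-204 was 38.8% (37.3 to 40.2), 58.1% (56.6 to 59.7), 66.2% (63.3 to 69.1) and 33.1% (31.6 to 34.6) at those times. At 30 min B2M-201 was 25.3-fold (20.6 to 31.4) lower than at 0 min, and B2M-204 was 2.50-fold (2.28 to 2.73) lower. At 10 min they lay on opposite sides of 1: B2M-204 had a ratio to 0 min of 1.36 (1.28 to 1.45) and B2M-201 one of 0.540 (0.505 to 0.578). At 360 min the ratio of B2M-201 was 0.938 (0.885 to 0.993) and that of B2M-204 0.709 (0.658 to 0.763).

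The gene sum divides mainly between these models, and which of their differences the split rests on was not tested. Their outer ends differ, B2M-204 lying at 44711487-44718877 and B2M-201 at 44711517-44718067 on chromosome 15. They also part at the first junction, and the bases around it are shown. Both stretches are the coding strand of the reference, 5′ to 3′, from the annotated start codon at position 44711547 of chromosome 15 to 40 bases past the point where the models meet again. In B2M-204 capitals mark the bases that B2M-201 lacks, and in B2M-201 they mark a repeat.
B2M-204: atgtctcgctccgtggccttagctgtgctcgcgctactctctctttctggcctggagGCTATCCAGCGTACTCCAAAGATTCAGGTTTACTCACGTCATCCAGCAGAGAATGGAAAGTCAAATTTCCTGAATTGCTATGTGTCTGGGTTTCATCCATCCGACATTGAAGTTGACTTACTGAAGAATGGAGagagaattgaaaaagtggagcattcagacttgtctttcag
B2M-201: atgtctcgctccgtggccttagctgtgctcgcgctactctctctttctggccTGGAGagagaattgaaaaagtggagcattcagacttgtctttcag
B2M-201 lacks 133 bases, the last 10 of exon 1 of B2M-204 and the first 123 of its exon 2. That length leaves a remainder of 1 when divided by 3, so the reading frame differs after the junction. Exon 1 ends at position 44711613 in B2M-204 and at 44711603 in B2M-201, and exon 2 starts at 44715423 in B2M-204 and at 44715546 in B2M-201. The stretch TGGAG, 5 bases long, stands at both ends of the missing part, so its exact place within that repeat cannot be read from the sequence. Placed as annotated, the missing part begins with GC and ends with AG, not with the usual GT and AG of an intron. Whether B2M-201 is present in the cells as annotated was not tested, although it held 54.2% and 61.2% of the gene at 0 and 360 min and carried most of the 4.27-fold difference at 30 min.

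With protein-coding transcripts alone B2M had 125 CPM at 0 min, 170 CPM at 10 min, 50.4 CPM at 30 min and 88.6 CPM at 360 min. The 30 min library was again the lowest, 2.47-fold (2.27 to 2.70) below 0 min, and the 10 min library was now the highest, at a ratio of 1.36 (1.28 to 1.45). With every annotated transcript but B2M-201, the 30 min level was 2.15-fold (1.99 to 2.33) lower than at 0 min. With B2M-201 and B2M-204 alone it was 5.26-fold (4.87 to 5.69) lower. The 30 min library was below the 0 min library in each of these sums, and the size of the difference depended on the models counted.

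The 12 other annotated B2M transcripts had 22.3 CPM at 0 min, 27.3 CPM at 10 min, 18.3 CPM at 30 min and 14.9 CPM at 360 min in sum. Their ratio of 0.821 (0.693 to 0.971) at 30 min was nearer to 1 than that of either leading model. B2M-211 had 375 counts at 30 min and 311 at 0 min, and B2M-213 had 353 and 304. B2M-206 was lower, with 156 counts at 30 min and 505 at 0 min. B2M-205 had 312 counts at 360 min and 0 in the other libraries, where 0 allows up to 12 counts (3 read pairs). No assembled model lay in the B2M locus, and its exons overlap no other annotated gene. The transcript counts are the authors' estimates, which divide reads among models, and whether the split itself moved between libraries was not tested.

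**Figure D2:**
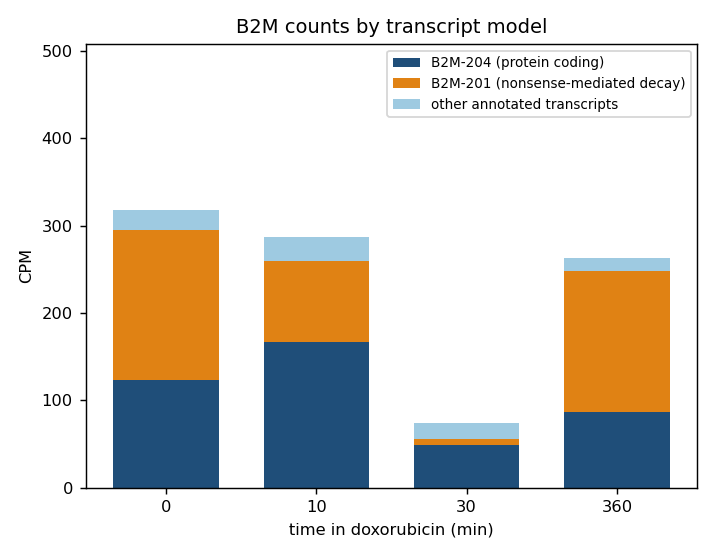
B2M level in CPM (vertical axis from 0), stacked by transcript model, at 0, 10, 30 and 360 min (horizontal axis, 1 library per time). B2M-201 is the largest part at 0 and 360 min, with 54.2% and 61.2% of the sum, and a thin band at 30 min, with 9.15%.

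The 5 genes whose 3 log2 ratios to 0 min lay nearest to those of B2M, of 12132 genes with at least 5 CPM in a library, were PATL1, EHMT1, LANCL1, ZNF736 and AC016026.1. Their distances from B2M (Euclidean, on the log2 scale) were 0.265, 0.281, 0.390, 0.391 and 0.407. PATL1, an mRNA decapping factor gene, had 97.1 CPM at 0 min, 84.4 CPM at 10 min, 23.0 CPM at 30 min and 96.4 CPM at 360 min. EHMT1, a histone H3 lysine methyltransferase gene, had 61.3, 49.9, 16.9 and 49.1 CPM at those times. LANCL1 had 20.2 CPM at 30 min and 74.1 to 99.4 CPM otherwise. None of the other 7 genes of the set is among them, and with 3 ratios from 4 libraries the likeness is a description.

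None of the heavy chains was past the size rule at 30 min, and all 3 were highest at 10 min. HLA-E (ENSG00000204592, chr6:30489467-30494205, plus strand), the chain read by natural killer cell receptors, had 73.4 CPM at 0 min, 163 CPM at 10 min, 64.1 CPM at 30 min and 66.7 CPM at 360 min. The 10 min library alone was high, and the others lay between 64.1 and 73.4 CPM. HLA-E was 2.22-fold (2.06 to 2.39) higher at 10 min than at 0 min and was the 1 gene of the 8 past the size rule there, where 7.69% of 11892 tested genes were higher. None of the 8 was lower by the rule at 10 min, against 6.85% of those genes. The ratio was 0.874 (0.798 to 0.957) at 30 min and 0.909 (0.831 to 0.995) at 360 min. Transcript HLA-E-201 carried the pattern, with 3964, 8972, 3496 and 3634 counts at 0, 10, 30 and 360 min, or 94.97 to 99.05% of the gene.

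HLA-B (ENSG00000234745, chr6:31269491-31357188, minus strand) had 47.3 CPM at 0 min, 61.4 CPM at 10 min, 54.9 CPM at 30 min and 49.8 CPM at 360 min. The 10 min library was highest and the 0 min library lowest, with ratios to 0 min of 1.30 (1.17 to 1.44), 1.16 (1.05 to 1.29) and 1.05 (0.946 to 1.17) at 10, 30 and 360 min. One transcript, HLA-B-249, held 82.0 to 91.6% of the gene in every library.

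HLA-C (ENSG00000204525, chr6:31268749-31272130, minus strand) had 65.3 CPM at 0 min, 74.95 CPM at 10 min, 57.2 CPM at 30 min and 50.95 CPM at 360 min. Its ratio was above 1 at 10 min, 1.15 (1.05 to 1.26), and below 1 at 30 min, 0.876 (0.796 to 0.965), and at 360 min, 0.780 (0.707 to 0.862). The leading transcript changed at 10 min: HLA-C-201 had 3119, 1549, 2424 and 2136 counts at 0, 10, 30 and 360 min, and HLA-C-203 had 1831 counts at 10 min and 0 in the other libraries. HLA-B and HLA-C fall in 1 assembly locus, in which 3 assembled models with no gene name of their own held 44.1 to 51.1% of counts. The whole locus had 209.9 CPM at 0 min, 279 CPM at 10 min, 200.5 CPM at 30 min and 187 CPM at 360 min.

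The heavy chains are near copies of one another, so reads that fit more than 1 of them could have been divided between them, and their values are uncertain to that extent. Of the exon bases of HLA-B, 17.8% overlap a gene on the other strand and 1.15% overlap HLA-C, and the use of strand in counting is not given in the sources used here. Summed, HLA-B, HLA-C and HLA-E had 186 CPM at 0 min, 299 CPM at 10 min, 176 CPM at 30 min and 167 CPM at 360 min. That sum does not change with a split among the 3 genes, and it was highest at 10 min, the library in which fibroblast and matrix markers also had their highest sum. The part of those markers in the result was not tested.

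**Figure D3:**
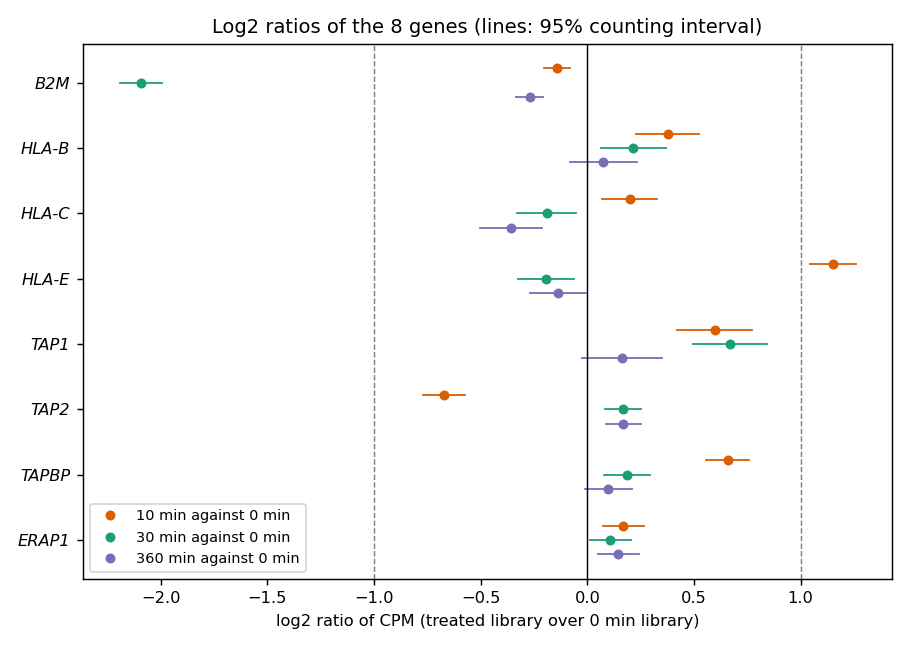
Log2 ratio of CPM, treated library over the 0 min library (horizontal axis), for the 8 genes (rows) at 10, 30 and 360 min (colours), with 95% counting intervals as lines, and dashed lines at 2-fold. B2M at 30 min and HLA-E at 10 min are the points outside the dashed lines, at 4.27-fold lower and 2.22-fold higher.

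Levels of different genes are compared here per kilobase of transcript (CPM per kb). B2M was first of the 8 in all 4 libraries, with 327, 250, 55.4 and 289 CPM per kb at 0, 10, 30 and 360 min, and TAP1 last, with 10.7, 16.3, 16.9 and 12.1. At 0 min the genes between them were HLA-C (43.9), TAP2 (41.5), HLA-B (35.4), HLA-E (30.9), TAPBP (28.5) and ERAP1 (26.8 CPM per kb). HLA-E was second at 10 min with 64.1 CPM per kb and seventh at 30 and 360 min with 25.4 and 26.3. HLA-B and HLA-C both stood at 48.7 CPM per kb at 10 min, and no spread between libraries is there to order such neighbours. B2M stood at 2.97 times the summed heavy chains per kb at 0 min, 1.55 times at 10 min, 0.523 times at 30 min and 3.03 times at 360 min, with all annotated transcripts counted. These orders depend on the short model B2M-201. With protein-coding transcripts alone, B2M had 73.7, 100.4, 30.0 and 52.5 CPM per kb at 0, 10, 30 and 360 min, second to TAP2 (30.5) at 30 min and first otherwise. On that scale B2M stood at 0.821, 0.750, 0.365 and 0.655 times the summed heavy chains, below them in all 4 libraries and lowest at 30 min.

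The transporter genes differed from each other at 10 min. TAP1 (ENSG00000168394, chr6:32845209-32853978, minus strand) had 31.4 CPM at 0 min, 47.5 CPM at 10 min, 49.96 CPM at 30 min and 35.2 CPM at 360 min. The 10 and 30 min libraries were the high pair, with ratios to 0 min of 1.51 (1.34 to 1.71) and 1.59 (1.41 to 1.79), and the 360 min ratio was 1.12 (0.982 to 1.28). TAP1-201 held 91.3 to 99.2% of the counts. Of its exon bases, 9.49% overlap PSMB8-AS1 on the other strand.

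TAP2 (ENSG00000204267, chr6:32821833-32838780, minus strand) had 155 CPM at 0 min, 97.3 CPM at 10 min, 174 CPM at 30 min and 174 CPM at 360 min. Here the 10 min library was the low one, 1.59-fold (1.49 to 1.70) below 0 min, and the ratio was 1.12 at 30 min (1.06 to 1.19) and at 360 min (1.06 to 1.19). The transcripts within TAP2 moved more than their sum. TAP2-201 had 2276, 4258, 6602 and 7282 counts at 0, 10, 30 and 360 min, TAP2-202 had 3460, 0, 0 and 21, and TAP2-205 had 3045, 1122, 2968 and 2262. With each transcript divided by its length, TAP2 at 10 min had a ratio to 0 min of 0.430. That is 2.33-fold lower and so past 2-fold, with no interval computed. At 30 and 360 min the ratios per length were 0.770 and 0.764, on the other side of 1. The leading model was TAP2-202 at 0 min and TAP2-201 in the treated libraries, and 32.3% of the exon bases of TAP2 overlap AL669918.1 on the same strand.

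Tapasin and the trimming enzyme had their highest levels at 10 min. TAPBP (ENSG00000231925, chr6:33299694-33314387, minus strand) had 93.7 CPM at 0 min, 148 CPM at 10 min, 107 CPM at 30 min and 100.2 CPM at 360 min. Its ratios to 0 min were 1.58 (1.47 to 1.69), 1.14 (1.06 to 1.23) and 1.07 (0.992 to 1.16) at 10, 30 and 360 min. An assembled model of the TAPBP locus held a further 114, 79.1, 63.1 and 67.6 CPM at 0, 10, 30 and 360 min, or 34.8 to 55.0% of the locus. With it the locus had 208, 227, 170 and 168 CPM, and the ratio was 1.09 (1.04 to 1.15) at 10 min, but 0.815 (0.772 to 0.861) at 30 min and 0.807 (0.764 to 0.852) at 360 min, on the other side of 1.

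ERAP1 (ENSG00000164307, chr5:96760810-96808100, minus strand) had the narrowest range of the 8, with 119 CPM at 0 min, 134 CPM at 10 min, 128 CPM at 30 min and 132 CPM at 360 min. Its ratios to 0 min were 1.12 (1.05 to 1.20), 1.08 (1.01 to 1.15) and 1.11 (1.03 to 1.18), and ERAP1-202 held 82.4 to 88.1% of the counts. With the assembled model of its locus, which had 2.93 to 9.74 CPM, the ratios were 1.06 (0.998 to 1.14), 1.02 (0.955 to 1.09) and 1.06 (0.992 to 1.13).

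**Figure D4:**
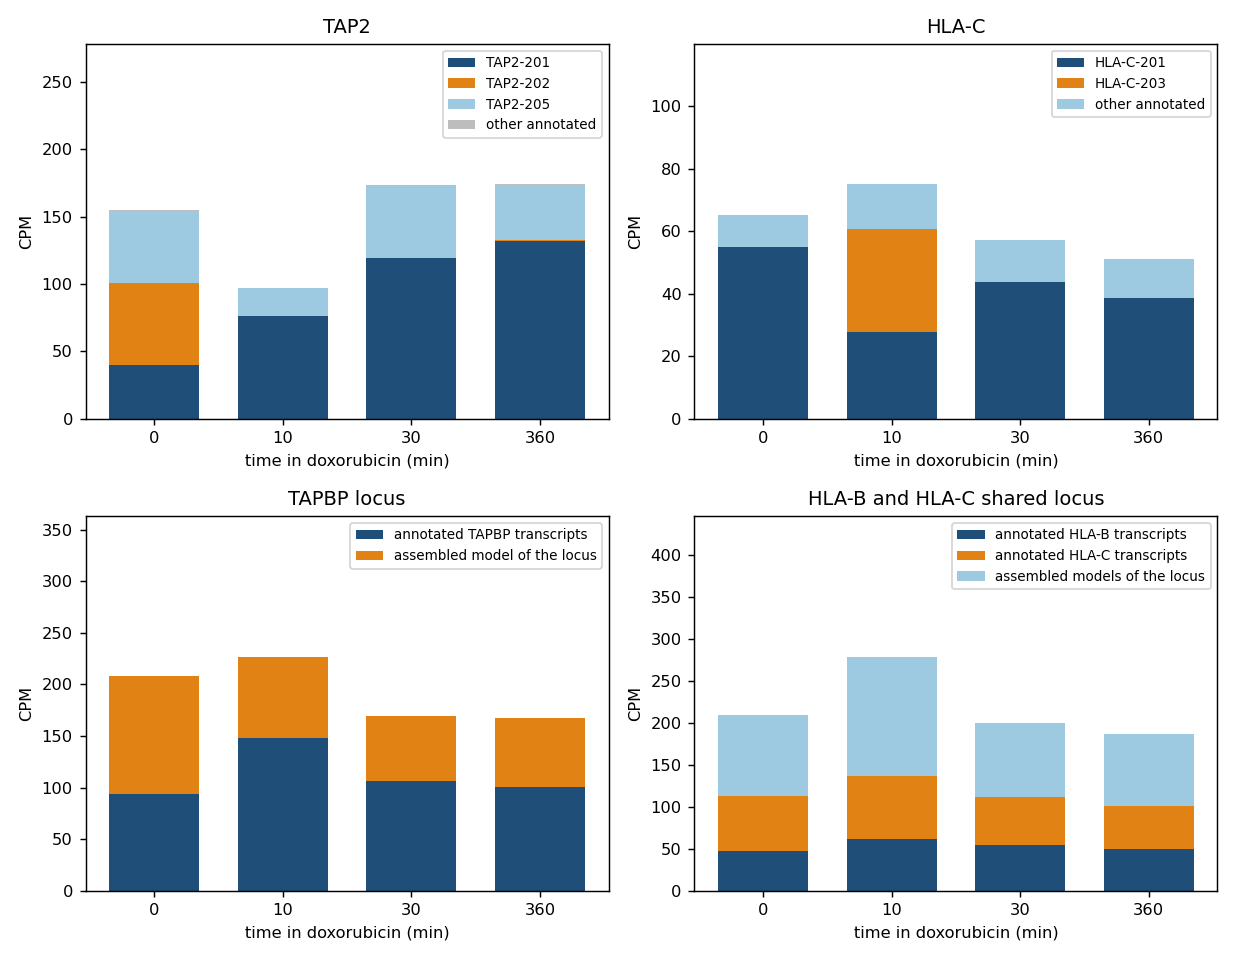
Level in CPM (vertical axes from 0), stacked by transcript model, at 0, 10, 30 and 360 min (horizontal axes, 1 library per time), for TAP2, HLA-C, the TAPBP locus and the locus shared by HLA-B and HLA-C. TAP2-202 is seen at 0 min with 3460 counts and HLA-C-203 at 10 min with 1831 counts, and the assembled model of TAPBP is largest at 0 min with 114 CPM.

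Across the 8 genes, 5 had their highest level at 10 min (HLA-B, HLA-C, HLA-E, TAPBP and ERAP1). The share of all genes highest at 10 min was not computed. The size rule is another measure, which HLA-E alone of these 5 passed at 10 min. By it 7.69% of all tested genes were higher at 10 min, against 3.55% at 30 min and 3.26% at 360 min. For HLA-B (57.3 to 65.6 CPM) and ERAP1 (127.9 to 140.2 CPM) the 10 min counting interval overlaps that of another library. The ratio to 0 min was above 1 for 6 of the 8 at 10 min, 5 at 30 min and 5 at 360 min, and the share of all genes above 1 was not computed. Their median log2 ratio was 0.29 at 10 min, 0.14 at 30 min and 0.09 at 360 min, beside -0.04, -0.01 and 0.01 over all genes tested. None of the 8 was past the size rule at 360 min, where 3.26% of 11511 genes were higher and 3.34% lower. The leading transcript was not the same in all libraries for 3 of the 8, B2M, HLA-C and TAP2, and for the other 5 a single transcript led throughout. How often the leading transcript changed over all genes was not computed. Both genes past the rule against 0 min passed it at 1 time each, HLA-E at 10 min and B2M at 30 min.

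A list of 37 other genes of the pathway, 33 of them with at least 5 CPM in a library, showed few changes past the rule. At 10 min 1 of 33 tested genes was higher and 1 lower, at 30 min 1 of 32 was higher and 1 lower, and at 360 min none of 32 was higher and 3 were lower, against the shares of all genes given for each time. The list's median log2 ratio was 0.02 at 10 min, -0.02 at 30 min and 0.01 at 360 min. The 27 genes that passed at no time had ratios from 0.532 to 1.78.

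Among other heavy chains and partners of B2M, HFE and MR1 were lower at 360 min by CPM. HFE, which pairs with B2M and regulates iron uptake, had 4.71 CPM at 360 min, against 11.6 CPM at 0 min, 2.47-fold (1.84 to 3.34) lower. Its transcript HFE-207, of 5286 bases, had 566, 650, 704 and 56 counts at 0, 10, 30 and 360 min, and HFE-201, of 1158 bases, had 30, 0, 0 and 134 and led at 360 min. Per kb the 360 min ratio of HFE was 1.12, so the decrease does not hold once transcript length is used. MR1, which presents vitamin B metabolites to T cells, had 19.2, 16.3, 10.7 and 7.05 CPM at 0, 10, 30 and 360 min and was 2.72-fold (2.15 to 3.47) lower at 360 min than at 0 min, with a ratio per kb of 0.672. FCGRT, the heavy chain of the neonatal Fc receptor, had 25.8 CPM at 10 min, against 14.5 CPM at 0 min, a ratio of 1.78 (1.495 to 2.12), and MICA, a stress ligand of natural killer cells that does not bind B2M, had 14.5 to 17.9 CPM.

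Among chaperones and trimming enzymes, TAPBPL was lower at 30 and 360 min. TAPBPL encodes TAPBPR, a peptide editor related to tapasin, and had 13.3, 7.70, 6.33 and 4.04 CPM at 0, 10, 30 and 360 min. It was 2.10-fold (1.63 to 2.74) lower at 30 min and 3.30-fold (2.43 to 4.53) lower at 360 min. Its coding transcript TAPBPL-201 had 703, 265, 51 and 131 counts, while TAPBPL-204, annotated as a processed transcript, had 0, 75, 209 and 26, and 10.6% of its exon bases overlap genes on the other strand. The chaperone genes HSPA5 (1651 to 2019 CPM) and CALR (1464 to 1833 CPM) were the most counted of the group, and their ratios lay between 0.905 and 1.15.

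Among the immunoproteasome and its activators, PSMB10, a catalytic subunit, was higher at 30 min by CPM. It had 26.4 CPM against 13.0 CPM at 0 min, 2.02-fold (1.69 to 2.43), but 1.98-fold per kb, under the 2-fold limit. Its protein-coding transcripts held 31.0, 26.4, 39.4 and 50.5% of its counts at 0, 10, 30 and 360 min. PSMB10 shares 34.8% of its exon bases with AC040162.1 on the same strand, and its leading transcript differed between libraries. The activator subunit gene PSME1 had ratios of 1.38 (1.27 to 1.49), 1.14 (1.05 to 1.24) and 1.19 (1.09 to 1.29) at 10, 30 and 360 min. PSME2, its partner subunit, had ratios of 0.782 (0.706 to 0.865), 1.07 (0.976 to 1.18) and 0.979 (0.890 to 1.08).

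Among regulators of class I transcription, the calls at 10 min were NFYA and EZH2. NFYA, a subunit of the complex that binds the CCAAT element, had 22.5 CPM at 10 min, against 2.76 CPM at 0 min. That was 8.14-fold (5.83 to 11.7) higher (4.38-fold per kb). It had 2.08 and 2.70 CPM at 30 and 360 min. The rise lay in 1 transcript: NFYA-201 had 42, 1203, 12 and 32 counts at 0, 10, 30 and 360 min. NFYA-202 was lower at 10 min, with 115, 47, 103 and 117 counts, and led in the other libraries. The partner subunit genes NFYB and NFYC had 27.0 and 15.6 CPM at 10 min, against 27.0 and 27.2 CPM at 0 min. EZH2, a histone methyltransferase of Polycomb, had 11.1 CPM at 10 min, against 32.9 CPM at 0 min, 2.97-fold (2.47 to 3.59) lower. NFKB1, which encodes the p105 precursor of an NF-kB subunit, had ratios of 0.532 (0.470 to 0.601) at 10 min, 0.867 (0.780 to 0.964) at 30 min and 1.10 (0.999 to 1.22) at 360 min. NLRC5, the class I activator, had 16.2, 21.8, 16.6 and 19.4 CPM at 0, 10, 30 and 360 min.

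**Figure D5:**
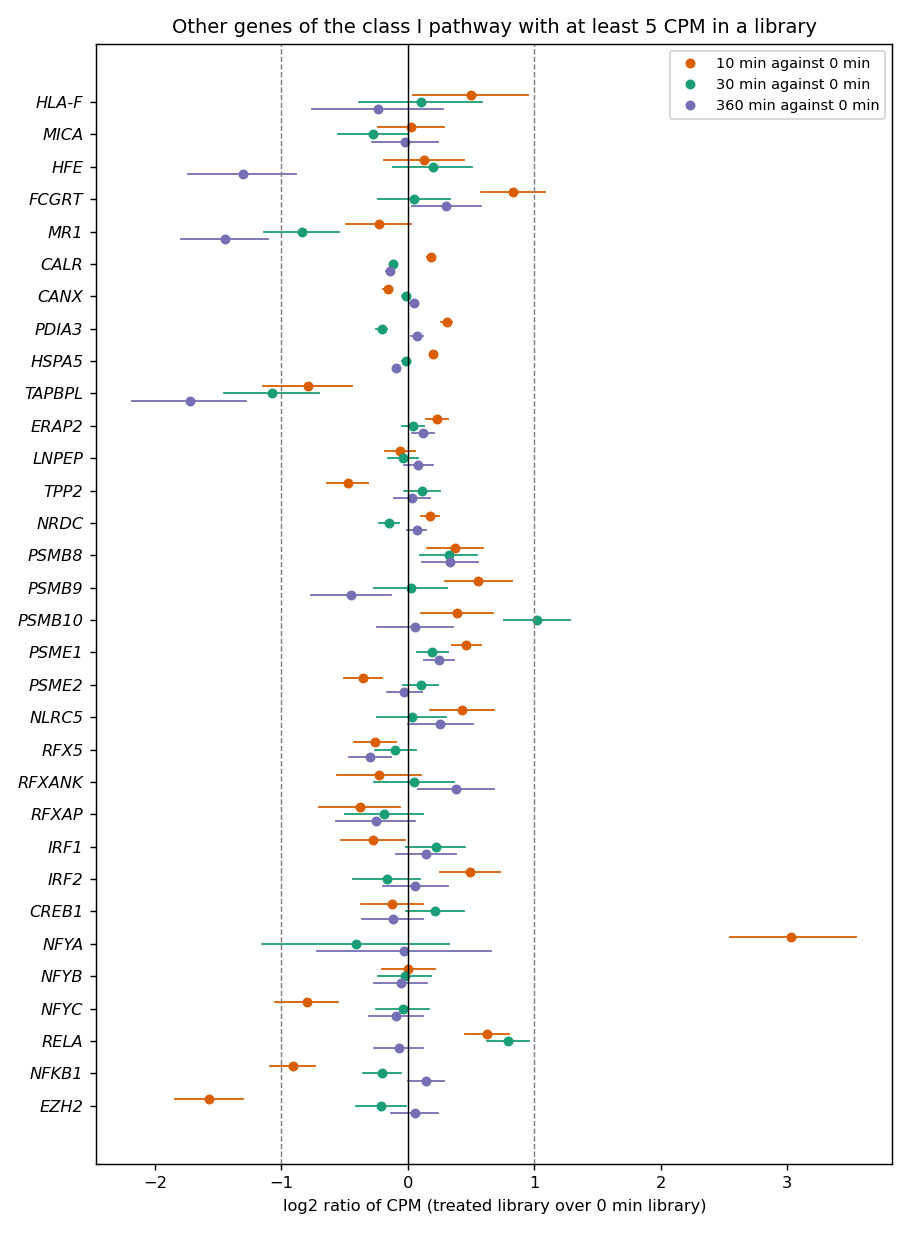
Log2 ratio of CPM, treated library over the 0 min library (horizontal axis), for 32 other pathway genes with at least 5 CPM in a library (rows) at 10, 30 and 360 min (colours), with 95% counting intervals as lines and dashed lines at 2-fold. NFYA at 10 min lies farthest to the right at 8.14-fold higher, and TAPBPL at 360 min farthest to the left at 3.30-fold lower.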

How the data were processed

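Per the labels' protocols, RNA was taken with Trizol from cells detached with trypsin, selected on poly(dT) beads and copied to cDNA with SmartScribe. HISAT2, GRCh38 and DESeq2 are named, with no versions, per the submitters' processing notes. Not given in the sources used here are the counting tool, the annotation release and the use of strand. The authors deposited tables of estimated counts, for transcripts and for loci, as unscaled whole numbers.

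Annotated (ENST) rows were summed per gene with GENCODE 29 and scaled to CPM by column totals. Rows with no match in that annotation held 0.0756% of counts and assembled models 11.1%. Of 13532 low values of single-transcript genes 31.3% were multiples of 4, where even spacing gives 25%, so a read pair was taken as worth 4 counts. That is a cautious reading, not a settled one, and intervals (95%, exact Clopper-Pearson, conditional binomial) use counts divided by 4. The labels record no molecular identifiers, and intervals and floors therefore cover counting error alone. With 1 library per time no test was run and no p-value computed. Values per kb sum each transcript's CPM over its length. The interval and rule were tested on simulated data with set changes and counting error alone. That could not check variation between libraries or the division of reads among models.

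The genes, the pathway list and the markers were chosen with earlier results of these data known. Named beside the 8 genes are pathway genes past the size rule, the 2 most counted per group and the 5 genes nearest to B2M. NFYB, NFYC and NLRC5 were added to these after their values were seen, and 1 gene that the rule names and 1 marker are not reported here. Alternatives were TMM (edgeR 4.0.16, R 4.3.3), median-of-ratios factors (DESeq2 1.42.0), the locus value, coding transcripts alone, undivided counts, no filter and another baseline, and, added after the data were seen, ratios per kb and coding levels per kb. Other tools were Python 3.11.15, numpy 2.4.6, pandas 2.3.3, SciPy 1.17.1 and matplotlib 3.10.9.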

Additional observations from a re-analysis of the deposited data

How the results depend on the processing

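The counts of the 8 genes past the size rule at each time were the same under 7 alternatives of scaling, models, intervals, filter and baseline, though by assembly locus just 5 of them have a locus of their own. The B2M ratio at 30 min was 0.234 and became 0.404 with coding transcripts alone and 0.259 against the median of the other 3 libraries. At 10 min the B2M ratio lay above 1 under both, at 1.36 and 1.09. The assembly locus, which for TAPBP is the annotated plus assembled models, put TAPBP at 0.815 and 0.807 at 30 and 360 min. Ratios per kb, chosen after seeing the data and not among the 7 alternatives above, put B2M at 30 min at 0.169. They put TAP2 at 0.430, 0.770 and 0.764 at 10, 30 and 360 min. By them TAP2 was more than 2-fold lower at 10 min and changed its side of 1 at 30 and 360 min. Against the median of the other 3 libraries, ERAP1 at 30 min (0.975) and HLA-B (0.907), TAP1 (0.741) and TAPBP (0.941) at 360 min lay below 1. The pathway median at 10 min was -0.0185 with TMM. Over all genes, the numbers past the rule by assembly locus were 600 higher and 468 lower at 10 min, 160 and 133 at 30 min, and 96 and 96 at 360 min, over fewer features. Without the filter on low values they were 2261 and 1301, 993 and 900, and 802 and 904. At 10 min the higher genes made up 52.9% of those past the rule, and 63.5% without that filter, but 48.5% with TMM (830 higher, 883 lower), 49.3% with median-of-ratios factors (847 and 870) and 48.0% with coding transcripts (885 and 960). No paired analysis was possible because each time has 1 library. The depth allows up to 12 counts where 0 are listed, and division of reads among models and near copies limits single transcripts and HLA genes as well. The causes of these differences were not tested.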
